A study of Eurytemora affinis with 4 samples.

Results

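Male and female expression in adults of *Eurytemora affinis*, an estuarine copepod, was described along 6 scaffolds of the genome assembly, Scaffold154, Scaffold217, Scaffold230, Scaffold318, Scaffold420 and Scaffold435, on which loci with expression far higher in males lie close together. All loci listed on these scaffolds were taken, 419 of the 61672 transcribed loci in the authors' Cuffdiff table, and 252 of them are also in the authors' edgeR table. The scaffolds were chosen from the difference between males and females itself, so the counts and fold changes below describe that choice, and no test of the difference supports it. Poly(A) RNA came from whole adults reared in culture, with 2 libraries of pooled males and 2 libraries of pooled females. All animals, of both sexes, were kept at 13 °C and 15 PSU with 15 h of light and 9 h of dark, were separated by sex 2 days before extraction, and were starved for the last 24 h with 6.0 µm beads at 120 µL per L to clear the gut. The tables hold 1 pooled value per sex and no value per library, so neither a replicate spread nor a library depth is known. No label states that the pools were taken from separate cultures, so the authors' p-values may measure technical spread alone.

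As background, males and females of one species share nearly all of their genes, and much of the difference between adult bodies lies in how strongly each gene is transcribed in each sex. In many animals a large part of male-biased expression in whole adults comes from the testis and from sperm development, and in *Drosophila melanogaster* genes expressed in the testis often lie next to each other in groups along the chromosome. In homogenised whole animals, more cells of a type and more RNA per cell cannot be told apart. The files give the loci numbers and positions but no gene names, so no role can be given to any locus here. Positions count from 1. Which genome build they refer to was not given in the sources used here.

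Of the 252 loci in the edgeR table, the authors' deposited table calls 70 male-biased (adjusted p below 0.05), or 27.8%, against 8.4% of its 37449 loci. Another 23 loci, 9.13%, had a negative fold change past the same threshold, against 9.58% of the loci in the authors' deposited table, and are called female-biased; 159 are not called. Scaffold230 had the highest share, with 21 of 36 tested loci male-biased. It ranked 1 of the 543 scaffolds that hold at least 15 tested loci, Scaffold318 ranked 2 with 13 of 32, and Scaffold435 ranked 3 with 6 of 15. Scaffold420 ranked 26 with 6 of 27, Scaffold154 ranked 37 with 16 of 79, and Scaffold217 ranked 123 with 8 of 63. The median of the 543 scaffolds was 7.59%. Since the scaffolds were chosen for this difference, nothing is read from their ranks.

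A run was taken as 4 or more loci with an edgeR log2 fold change of at least 8, each at most 50000 bases from the next. Of 19 such runs over all scaffolds, 5 lie on these scaffolds, 1 on each except Scaffold435. They hold 40 loci at 30 distinct positions. With a log2 ratio of the Cuffdiff FPKM values of at least 5 in place of the edgeR fold change, 25 loci lie in runs. This ratio was taken over loci with status OK, with 0.1 added to each FPKM. None is left on Scaffold154, where HIDATA loci drop out, or on Scaffold420. There the ratio with 0.1 added was 2.46 for GENE_0003238 and 4.89 for GENE_0150512, although Cuffdiff called both male-biased. The run of Scaffold318 has the most loci of the 19, with 12, followed by those of Scaffold230 with 10, Scaffold154 with 7 and Scaffold420 with 6. The run of Scaffold217 has 5 loci, the same number as 6 runs on other scaffolds. Scaffold435 has 2 loci past the threshold, so that by this measure it carries a pair of male-biased loci and no run. Loci past a log2 fold change of 8 are 46 of the 252 tested loci on the 6 scaffolds and 1.28% of all tested loci in the authors' deposited table. The members nearest to the threshold were GENE_0150509 on Scaffold420, just inside at 8.002, and GENE_0129469 on Scaffold230, just outside at 7.96, in the authors' deposited table.

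**Figure D1:**
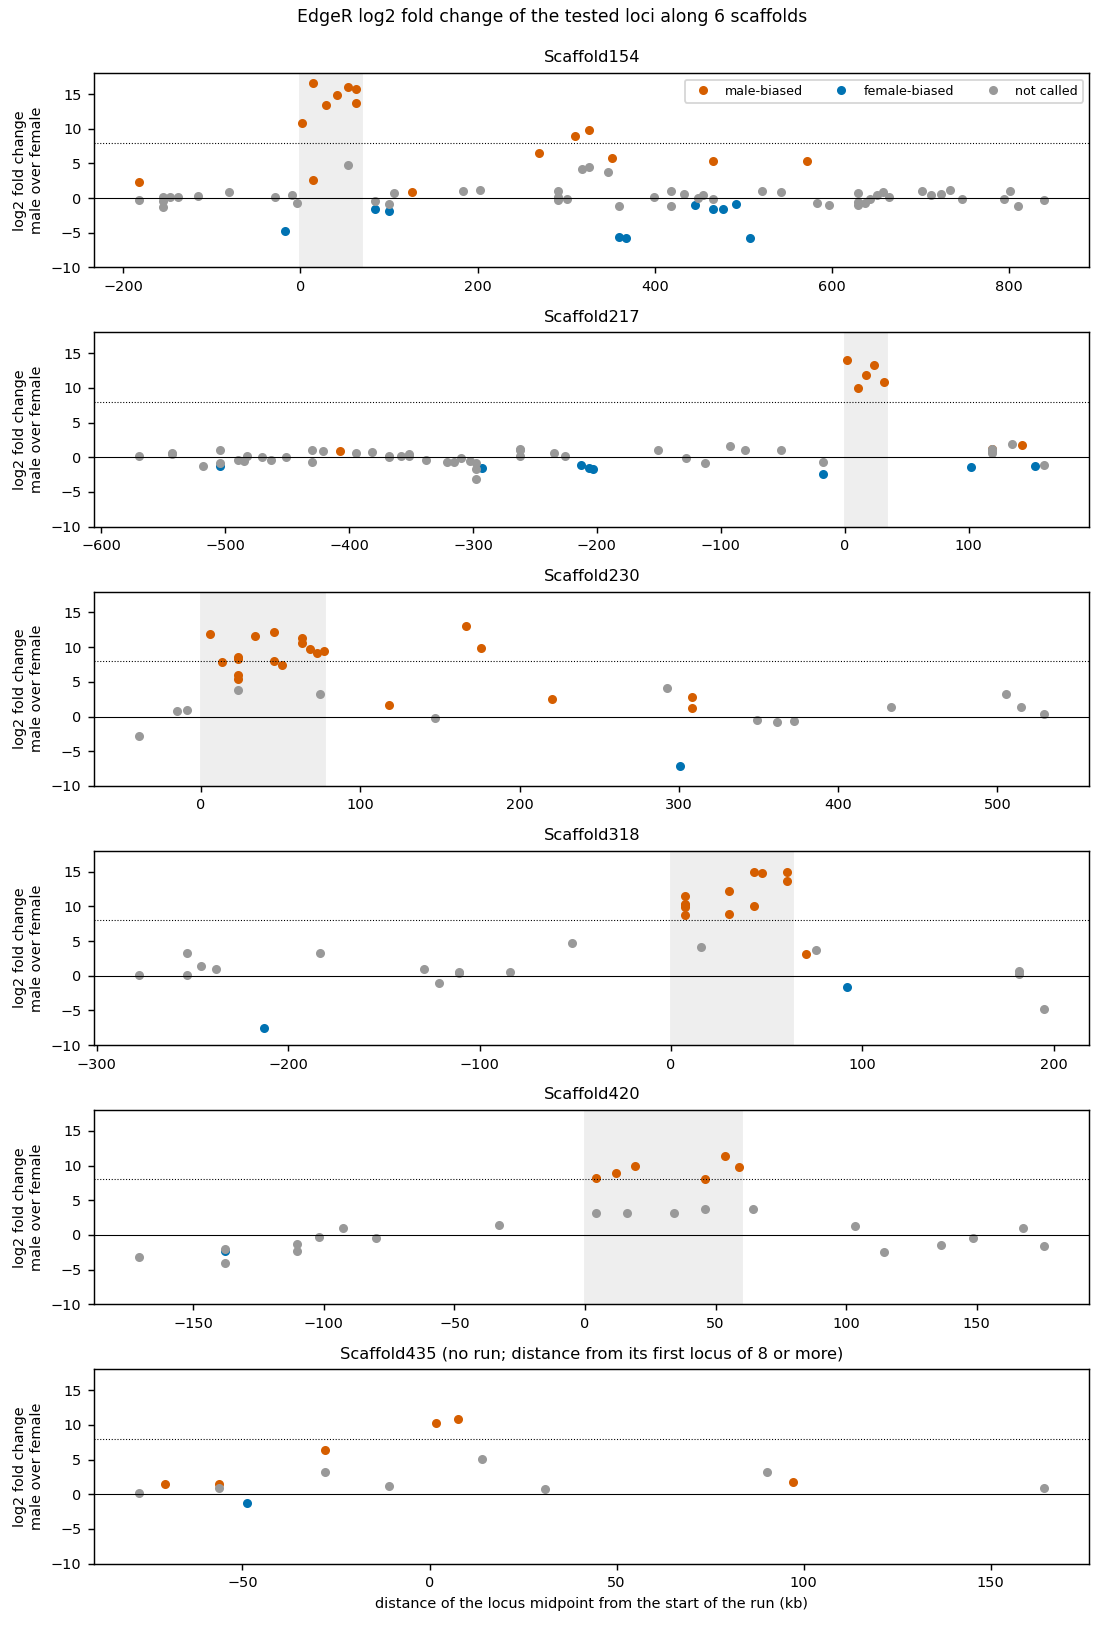
Each point is a locus of the edgeR table, placed by the distance of its midpoint from the start of the run (kb, x axis) and its edgeR log2 fold change of males over females (y axis), in orange for male-biased, blue for female-biased and grey for loci not called. The grey bands are the 5 runs and the dotted line is a log2 fold change of 8; on Scaffold435, which has no run, distances start at its first locus past 8. No female-biased locus lies inside a band, and 23 lie outside the bands on the 6 scaffolds.

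For the 40 run loci the authors' deposited table gives log2 fold changes with a median of 11.10, while its loci on all other scaffolds have a median of 0.13. The level of each sex was worked out from the average log2 CPM (counts relative to the library total, not scaled by length) together with the fold change, and is named the implied level. For males the implied levels of the 40 loci had a median of 7.997 log2 CPM. For females 38 of the 40 lay within 0.15 log2 units of -3.36 log2 CPM, the lowest female level of any tested locus, while 1.21% of all tested loci were male-biased with the female level there. That level is nearly the same at loci of very different male levels, so the fold changes of these 38 loci are not read as bounds. The exceptions are the first and the last locus of the Scaffold154 run, GENE_0116780 at -0.24 and GENE_0116789 at -0.25 log2 CPM in females.

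**Figure D2:**
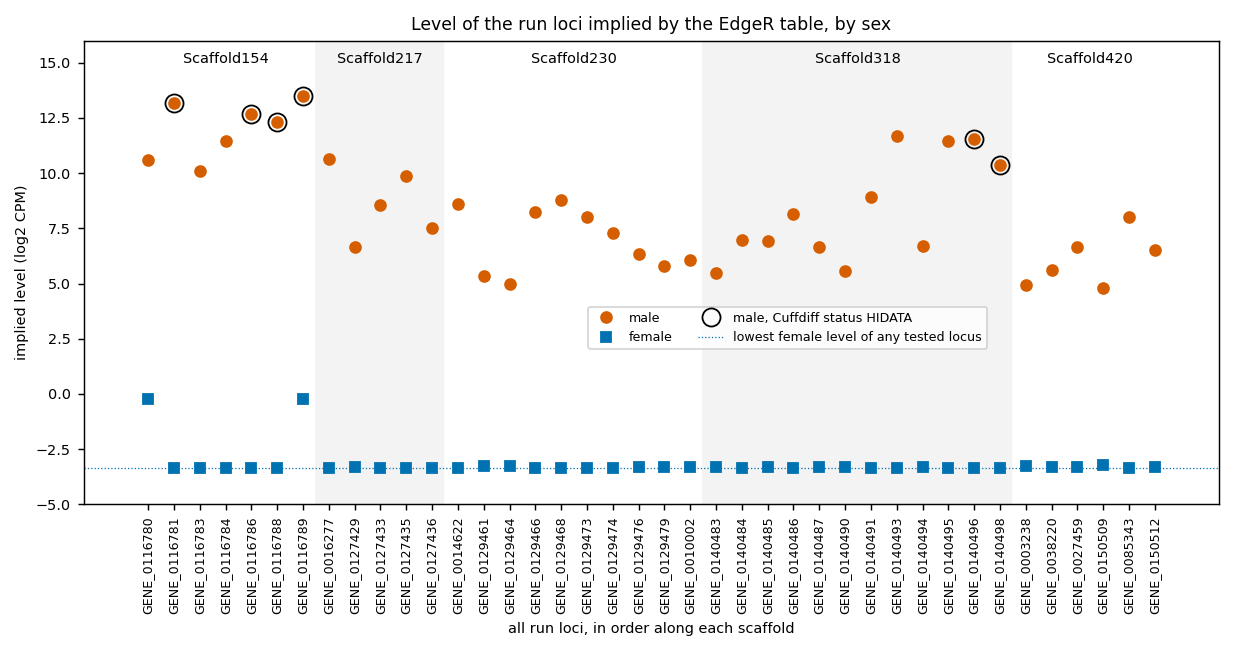
Implied level in log2 CPM (y axis) of the 40 run loci in males (orange circles) and females (blue squares), in order along each scaffold (x axis), with a black ring where Cuffdiff listed the locus as HIDATA. The female squares lie on the dotted line at -3.36, the lowest female level of any tested locus, at 38 loci, and at -0.24 and -0.25 at the ends of the Scaffold154 run.

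Summed over all tested loci of the 6 scaffolds, the implied levels came to 5.72% of everything counted in males and 0.729% in females, from 0.673% of the tested loci. By summed FPKM the same scaffolds had 0.0840% of the total in males and 0.0196% in females. That sum covers all 419 listed loci over all 61672, not only those of the edgeR table. It also counts the HIDATA run loci of Scaffold154 and Scaffold318 at their listed 0 FPKM in males. Single loci can weigh heavily in it. Among loci with status OK, the highest female value on the 6 scaffolds was 10910 FPKM, outside the runs at a locus that the edgeR table lacks. The edgeR loci outside the runs reached at most 122 FPKM in females. Among all other placed loci the highest female value was 2955660 FPKM. The size of the share thus depends on the measure and on the loci summed. By implied level most of the male share lies in the runs. The 40 run loci, 0.107% of those tested, took 4.94% in males and 0.000545% in females. The 7 run loci of Scaffold154 alone took 3.39% in males and 0.000217% in females. The run of Scaffold318 followed with 1.05% in males and 0.000119% in females, and that of Scaffold217 with 0.284% in males and 4.9e-05% in females. The runs of Scaffold230, with 0.163% in males and 9.97e-05% in females, and of Scaffold420, with 0.0498% in males and 6.1e-05% in females, were smaller. At 38 of the 40 run loci the female value behind these shares is the lowest level described above.

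The Cuffdiff table has status OK for 293 of the 419 loci, NOTEST (too few fragments to test) for 118 and HIDATA (too many fragments to test) for 8. Of the 293, 50 (17.1%) were listed at 0 in females, against 6.66% of all loci with status OK. FPKM, the authors' fragment count scaled by transcript length and depth, was summarised over loci that Cuffdiff tested (status OK). These are 28 of the 40 run loci. Their median was 31.5 FPKM in males and 5.69e-07 FPKM in females, and 24 of 28 reached 1 FPKM in males, against 0 of 28 in females. Among the 25325 edgeR loci of all other scaffolds with status OK, 14824 reached 1 FPKM in males and 14359 in females. The highest female value among the 28 run loci was 0.0487 FPKM. The pooled values of the sexes do not overlap at these 28 loci, which were chosen for a log2 fold change of at least 8, reached by 1.28% of all tested loci. The median log2 ratio of males over females, with a pseudocount of 0.1, was 7.68 over the 34 run loci whose status is not HIDATA.

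**Figure D3:**
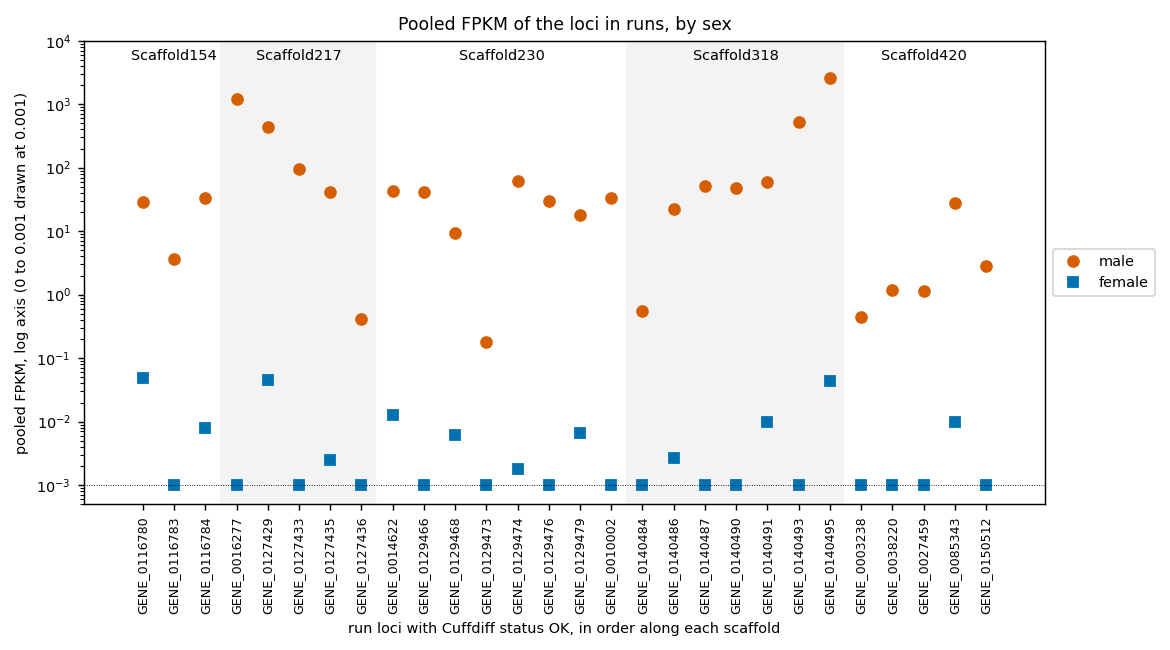
Pooled FPKM of males (orange circles) and females (blue squares) on a log axis for the 28 run loci that Cuffdiff tested, in order along each scaffold (x axis), with values from 0 to 0.001 drawn at the dotted line. Male values range from 0.181 to 2557 FPKM, and every female value lies at or below 0.0487 FPKM.

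Scaffold154 carries loci over more than 1 megabase, from base 6 to base 1047106, and the run takes up bases 201122 to 270707. It holds the 4 highest implied male levels of the 40 run loci. GENE_0116781, bases 206147 to 223902, ranked 2 among all loci of the authors' deposited table by log2 fold change, at 16.53. GENE_0116789, the last locus of the run at bases 258084 to 270707, had an implied level of 13.51 log2 CPM in males and -0.25 log2 CPM in females. GENE_0116781 had 13.18 log2 CPM in males and -3.36 log2 CPM in females. Cuffdiff listed 6 of the 10 loci inside this run as HIDATA, and their FPKM values were not used except in the summed FPKM above. Over all 61672 loci there are 39 with that status, which is 0.0632%, and 8 of the 39 lie on the 6 scaffolds. GENE_0116786, bases 251037 to 257898, and GENE_0116788, which has the coordinates of GENE_0116789, had implied levels of 12.67 and 12.30 log2 CPM in males, with both at -3.36 in females. Among the 3 run loci that Cuffdiff tested, GENE_0116784, bases 238161 to 245864, had 33.6 FPKM in males and 0.00802 FPKM in females. GENE_0116780, bases 201122 to 205147, had 28.5 FPKM in males and 0.0487 FPKM in females. GENE_0116783, bases 226951 to 233121, had 3.67 FPKM in males and was listed at 0 in females. All 3 were therefore far higher in males, and Cuffdiff called GENE_0116780 and GENE_0116783 but not GENE_0116784 (adjusted p of 0.0162, 0.000859 and 0.424 in the authors' deposited table).

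The nearest tested loci beyond the Scaffold154 run were not male-biased. On the side before it, GENE_0116778 ends 2202 bases from the run and had 0.0492 FPKM in males and 0.123 FPKM in females, too few fragments for Cuffdiff to test. A little farther out, GENE_0116776, bases 181510 to 185564, was female-biased with 0.202 FPKM in males and 11.9 FPKM in females. On the side after it, GENE_0021963 begins 3106 bases from the run and had 2.59 FPKM in males and 26.5 FPKM in females. The authors' deposited table gives it a log2 fold change of -1.62 with an edgeR adjusted p of 0.00821 and a Cuffdiff adjusted p of 0.0529. It has the same coordinates as GENE_0103471, so that the reads of the pair are uncertain. GENE_0103471 had the higher average level, 8.13 against 3.76 log2 CPM. It was not called by edgeR, with a log2 fold change of -0.42 and an adjusted p of 0.323 in the authors' deposited table. Loci called female-biased by edgeR thus lie on both sides of the run.

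A looser group lies farther along Scaffold154. GENE_0116817, bases 506946 to 515108, had 0.504 FPKM in males and 0.000882 FPKM in females. GENE_0064353, bases 521116 to 532118, had 2.07 FPKM in males and 0.00659 FPKM in females. The authors' deposited table puts their log2 fold changes at 8.97 and 9.80, past the threshold, but they are only a pair. With the threshold lowered to 4 they join GENE_0116807, GENE_0116819, GENE_0053151 and GENE_0116829 in a run of 6 loci, bases 466773 to 556381. EdgeR did not call GENE_0116819 or GENE_0053151 (adjusted p of 0.357 and 0.222 in the authors' deposited table). GENE_0053151 has the coordinates of GENE_0064353. Between the 6 lie loci with little difference, such as GENE_0116812 at -0.26 and GENE_0116813 at 0.14. Cuffdiff called GENE_0116824, also between them, female-biased (adjusted p of 0.00817). Strongly female-biased loci follow at once. GENE_0076412, bases 558337 to 564480, had 1.11 FPKM in males and 58.4 FPKM in females. GENE_0012977, bases 565242 to 572270, had 0.0130 FPKM in males and 1.57 FPKM in females, and its log2 fold change of -5.78 was the lowest of the scaffold in the authors' deposited table. Cuffdiff called neither of these 2 loci. Of the 70 tested loci of Scaffold154 outside the run, 8 were male-biased and 10 female-biased.

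Scaffold217 has its run at bases 583085 to 616935. The 5 run loci are all the edgeR loci in that stretch. Along the run GENE_0016277 had 1197 FPKM in males and was listed at 0 in females, and GENE_0127429, bases 593381 to 594033, had 442 FPKM in males and 0.0452 FPKM in females. GENE_0127433, bases 598220 to 601681, had 96.0 FPKM in males and was listed at 0 in females. GENE_0127435, bases 603483 to 609351, followed with 41.3 FPKM in males and 0.00248 FPKM in females, and GENE_0127436, the last locus, had 0.414 FPKM in males and was listed at 0 in females. Male FPKM thus falls from each run locus to the next. The implied male levels do not keep this order, with 10.62, 6.67, 8.54, 9.89 and 7.51 log2 CPM. Dividing the implied male CPM by the male FPKM gives the length in kilobases at which both would be equal. For GENE_0127436 that length was 441 kb, on a span of 3.73 kb. Over the 28 run loci that Cuffdiff tested, it exceeded the span at 19 (67.9%). Among other tested loci from the same minimum log2 CPM upward it did so at 48.7%. The cause of the disagreement was not tested.

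The nearest tested loci beyond that run had more FPKM in females. GENE_0127425, which ends 10966 bases before the run, had 0.362 FPKM in males and 2.44 FPKM in females. It has the same coordinates as GENE_0127424, which had 0.143 FPKM in males and 0.722 FPKM in females and whose log2 fold change of -2.38 is the lowest among the called loci of the scaffold in the authors' deposited table. The next tested locus after the run, GENE_0127445 at bases 675735 to 693453, begins 58799 bases away and was female-biased, with 3.60 FPKM in males and 11.9 FPKM in females. Between them lie loci that the edgeR table lacks, such as GENE_0127437, bases 618226 to 618446, with 5.26 FPKM in males and 0 in females, which was chosen after its values were seen. Outside the run, 3 of 58 tested loci were male-biased and 8 were female-biased.

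Scaffold230 has male-biased loci in its run and beyond it. The run, bases 66457 to 144468, begins with GENE_0014622, which had 42.8 FPKM in males and 0.0125 FPKM in females. GENE_0129466, bases 98089 to 102783, had 41.6 FPKM in males and was listed at 0 in females. GENE_0129468, bases 108582 to 115545, had 9.37 FPKM in males and 0.00623 FPKM in females, and GENE_0129469 at the same bases had 36.7 FPKM in males and was listed at 0 in females. GENE_0129476, bases 134014 to 135980, had 30.3 FPKM in males and was listed at 0 in females, and GENE_0129479, bases 138357 to 140641, had 17.8 FPKM in males and 0.00671 FPKM in females. Male FPKM of the tested loci thus spans a narrower range in this run than in that of Scaffold217, apart from GENE_0129473, at 0.181 FPKM in males and 2.72e-08 FPKM in females. The run ends with GENE_0010002, bases 142304 to 144468, which had 32.7 FPKM in males and was listed at 0 in females. GENE_0129474, bases 126869 to 133154, had the highest FPKM of the run, 61.9 in males and 0.00181 in females. All 17 edgeR loci inside the run had a positive log2 fold change, and 15 of them were male-biased. Before the run, GENE_0129459, which ends 7431 bases away, had 15.2 FPKM in males and 9.32 FPKM in females, with an edgeR adjusted p of 0.0739 in the authors' deposited table. After the run, GENE_0129487 begins 39256 bases away and was male-biased with 21.0 FPKM in males and 7.66 FPKM in females.

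A pair of loci on Scaffold230 lies beyond the gap allowed in a run. GENE_0044171, bases 226778 to 239006, had an implied level of 9.64 log2 CPM in males and -3.35 log2 CPM in females, but Cuffdiff gave it 0.129 FPKM in males and 0.00292 FPKM in females and too few fragments to test. GENE_0040106, bases 241200 to 242805, had 246 FPKM in males and was listed at 0 in females. With gaps of up to 100000 bases the pair joins the run, which then reaches base 242805 with 12 loci. Outside the run 6 of 19 tested loci were male-biased. The single female-biased locus, GENE_0129497 at bases 366563 to 367500, had 0.490 FPKM in males and 37.6 FPKM in females, and the authors' deposited table puts its log2 fold change at -7.15.

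Scaffold318 has its run at bases 286812 to 350603, and its 12 loci lie at only 5 positions. At the first position 5 loci have identical coordinates, bases 286812 to 301097. By edgeR all 5 were male-biased, with implied male levels from 5.48 to 8.15 log2 CPM, whereas Cuffdiff gave GENE_0140487 51.5 FPKM, GENE_0140486 22.4 FPKM, GENE_0140484 0.544 FPKM and GENE_0140485 0.000419 FPKM in males. GENE_0140483 was listed at 0 FPKM in males. The next run position, bases 313490 to 320650, holds GENE_0140490, with 48.6 FPKM in males and 3.99e-06 FPKM in females, and GENE_0140491, with 59.5 FPKM in males and 0.00991 FPKM in females. The highest value of the run was that of GENE_0140495, bases 333656 to 335420, with 2557 FPKM in males and 0.0442 FPKM in females. GENE_0140493, bases 327468 to 333292, had 524 FPKM in males and 8.66e-08 FPKM in females. Both were far higher in males, and Cuffdiff called neither, with adjusted p of 0.362 and 0.407 in the authors' deposited table. The last position, bases 344063 to 350603, holds GENE_0140496 with an implied level of 11.57 log2 CPM in males and -3.36 in females, and GENE_0140498 with 10.35 log2 CPM in males and -3.35 in females, both with HIDATA status.

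A locus with a weaker male bias lies just past the Scaffold318 run. GENE_0140500, which begins 4270 bases after it, had 1.55 FPKM in males and 0.182 FPKM in females and was called male-biased by all 3 of the authors' methods. Before the run the nearest tested locus, GENE_0182369, lies 51631 bases away, spans 61 bases and was not called. The female-biased loci are GENE_0140503, bases 374069 to 383347, with 9.04 FPKM in males and 31.9 FPKM in females, and GENE_0140454, bases 71466 to 77084, with 0.0330 FPKM in males and 6.23 FPKM in females. The log2 fold change of GENE_0140454 was -7.51 in the authors' deposited table. Outside the run 1 of 19 tested loci was male-biased.

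Scaffold420 has the run with the smallest share of the male total, at bases 225777 to 285802. Its 6 loci had implied male levels from 4.78 to 7.998 log2 CPM. GENE_0003238, the first, had 0.449 FPKM in males and was listed at 0 in females. GENE_0038220, bases 236155 to 238952, had 1.17 FPKM in males and was listed at 0 in females. GENE_0027459, bases 243505 to 246181, had 1.14 FPKM in males and was listed at 0 in females. All 3 are thus low in males by FPKM. GENE_0085343, bases 277574 to 281064, had 27.9 FPKM in males and 0.00994 FPKM in females, the highest FPKM of the run. GENE_0150512, the last, at bases 283377 to 285802, had 2.86 FPKM in males and was listed at 0 in females. With gaps of at most 20000 bases the first 3 and the last 3 run loci come apart and neither part has the 4 loci of a run. No tested locus outside the run was male-biased, of 17, and 1 was female-biased: GENE_0042723, bases 71897 to 104046, with 2.15 FPKM in males and 12.6 FPKM in females. The nearest tested loci, GENE_0150501 at 25172 bases before the run and GENE_0012744 at 1551 bases after it, were not called. GENE_0012744 had 0.226 FPKM in males and 0.00544 FPKM in females.

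On Scaffold435, GENE_0151650, bases 82715 to 86174, had 1.01 FPKM in males, and GENE_0151651, bases 86731 to 93968, had 5.49 FPKM in males. Both were listed at 0 in females, and all 3 of the authors' methods called them male-biased. Their neighbour GENE_0077482, bases 95170 to 98306, had 0.540 FPKM in males and was also listed at 0 in females, which Cuffdiff called and edgeR did not (adjusted p of 0.000859 and 0.0524 in the authors' deposited table). GENE_0151646, bases 53566 to 56007, had 0.573 FPKM in males and 0.0338 FPKM in females. With the threshold lowered to 4 these 4 loci form a run from base 53566 to base 98306. The single female-biased locus is GENE_0099297, bases 31323 to 36551, with 4.54 FPKM in males and 11.3 FPKM in females.

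The loci that lie inside the 5 run spans without being run loci number 34. None of them was female-biased: of 14 in the edgeR table, 6 were male-biased and 8 were not called. Fold changes of the 14 run between 2.60 and 7.96 on the log2 scale of the authors' deposited table. The other 20 are not in the edgeR table and are short, with a median span of 843 bases. Cuffdiff tested 28 of the 34. All 28 had a higher FPKM in males than in females, against 54.2% of all loci tested by Cuffdiff, and 18 of the 28 were listed at 0 in females. Of the 34 loci, 18 have the same coordinates as another listed locus, in part a run locus, as GENE_0129460 does with GENE_0129461. The direction of such loci is not independent of the run loci, which were chosen for male bias. Cuffdiff called 8 of the 28 male-biased, against 7.06% of all loci it tested in the authors' deposited table. Their median was 1.21 FPKM in males. Some loci listed at 0 in females did not reach the fold threshold: GENE_0181753 on Scaffold230 had 0.857 FPKM in males and 0 in females while the authors' deposited table puts its log2 fold change at 3.23. The highest female value was that of GENE_0127431 on Scaffold217, which spans 116 bases and had 5106 FPKM in males and 57.9 FPKM in females without being called by Cuffdiff. FPKM values of such short loci are uncertain. GENE_0127432, bases 596080 to 596326, had 1.79 FPKM in males and 0.851 FPKM in females. On Scaffold318, GENE_0049857, bases 301401 to 303523, had 1.62 FPKM in males and 0.544 FPKM in females and was called male-biased by Cuffdiff but not by edgeR. GENE_0140488 on the same scaffold had 1.99 FPKM in males and 0.0393 FPKM in females. On Scaffold420, GENE_0085573 had 0.319 FPKM in males and 0.222 FPKM in females, and GENE_0078354 had 0.640 FPKM in males and 0.00989 FPKM in females. The loci with female values above those of the 28 run loci that Cuffdiff tested include GENE_0127431, GENE_0127432, GENE_0049857 and GENE_0085573. At bases 81414 to 97522 of Scaffold230, GENE_0129460 had 1.46 FPKM in males and 9.78e-05 FPKM in females, and GENE_0129462 had 1.75 FPKM in males and 0.000970 FPKM in females. Of this pair edgeR called GENE_0129460 only. On Scaffold154, GENE_0182257 had 0.783 FPKM in males and was listed at 0 in females, and GENE_0116782, with the coordinates of GENE_0116781 and HIDATA status, was male-biased by edgeR.

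**Figure D4:**
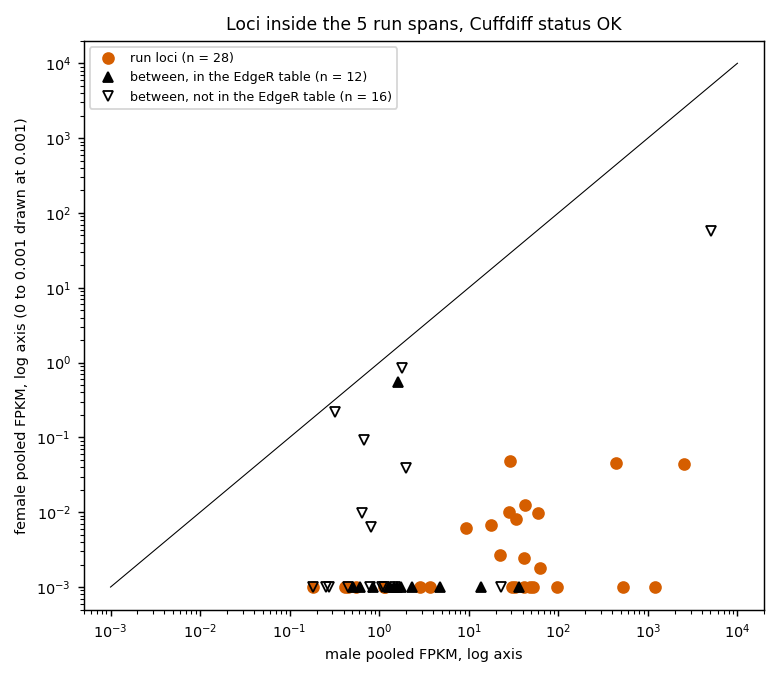
Male pooled FPKM (x axis) against female pooled FPKM (y axis), both on log axes, for the 56 loci inside the 5 run spans that Cuffdiff tested, as run loci (orange circles), other loci of the edgeR table (filled triangles) and loci that the edgeR table lacks (open triangles). Every point lies below the line of equal values, and female values from 0 to 0.001 are drawn at 0.001.

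Within 50000 bases outside the 5 runs the edgeR table holds 24 loci. Of these, 3 were male-biased, 5 were female-biased and 16 were not called, against 8.4% male-biased and 9.58% female-biased over all tested loci. In the authors' deposited table the 24 had a median of 0.26 and a highest value of 3.77 on the log2 fold change scale. Over the 198 tested loci of the 6 scaffolds that lie outside the runs, 24 (12.1%) were male-biased and 23 (11.6%) female-biased. Of the 24, 8 are on Scaffold154, 6 on Scaffold230, 6 on Scaffold435, 3 on Scaffold217 and 1 on Scaffold318. A run ends by construction where no further locus passes the threshold, so a lower fold change beyond the edge is part of the rule.

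The run loci were also described by span, shared coordinates and isoforms, which the fold threshold did not use. Their median span on the scaffold was 6286 bases, against 6347 bases for the tested loci of all other scaffolds, and the spans ranged from 653 to 17756 bases. Of the 40, 24 have exactly the same coordinates as another listed locus, against 47.5% of the tested loci of all other scaffolds. Several isoforms are listed for 6 of the 40 (15.0%), against 13.4% of those loci. No test of these differences was run. Neighbouring loci can be parts of one gene, and the tables do not tell how many genes a run holds.

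Where loci share coordinates, the locus with the highest male level often differed between the tools. The implied level is not scaled by length and FPKM is, so the order can differ without a different assignment of reads. Which of these applies was not tested. There are 22 positions on the 6 scaffolds with several loci and at least 1 male-biased locus, and 18 of them have FPKM values. At 8 of the 18 the locus with the highest implied male level was also the one with the highest male FPKM, and at 10 it was another. At 1 of these 10 the locus with the highest FPKM is not in the edgeR table. At bases 550205 to 556381 of Scaffold154, GENE_0116829 had an implied level of 8.30 log2 CPM in males and 2.52 log2 CPM in females, but 0.000708 FPKM in males and 0.000714 FPKM in females. The edgeR table lacks GENE_0116830 at the same bases, to which Cuffdiff gave 33.4 FPKM in males and 0.695 FPKM in females. By each tool the locus with the highest male level was higher in males. In all 3 loci are listed at these bases, so this does not describe the whole position. Of the 6 run loci with several isoforms, the isoform with the highest edgeR level was also that with the highest male FPKM in 2, and another in 4. In 3 of these 4 the isoform with the highest FPKM has no row in the edgeR isoform table and could not have matched, so only GENE_0003238 compares the tools. For GENE_0016277 edgeR has the isoform CUFF.26769.1, for which the authors' deposited table lists a log2 fold change of 13.98, whereas Cuffdiff gave that isoform 0.0980 FPKM in males and 0 in females and the isoform CUFF.26769.2 1197 FPKM in males and 0 in females. Of the 48 isoforms of the run loci, 45 are in the edgeR isoform table and 43 of these passed the threshold as higher in males, against 5.64% of all isoforms in the table; their loci were chosen for that difference.

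Cuffdiff called 13 of the 28 run loci it tested. The called loci are 11 of the 12 listed at exactly 0 in females and 2 of the 16 with a female FPKM above 0, although the median male FPKM was 17.0 in the 12 and 37.5 in the 16. Over all loci of the 6 scaffolds Cuffdiff called 45 male-biased and 28 female-biased, of 293 tested, against 7.06% and 10.4% of all loci it tested in the authors' deposited table. The authors' set shared by all 3 methods holds 20 male-biased loci of the 6 scaffolds, 13 of them in runs, against 1.44% of all tested loci for the male-biased loci of the set. It holds 4 loci of the Scaffold230 run, 4 of the Scaffold420 run, 3 of the Scaffold217 run, 2 of the Scaffold154 run and none of the Scaffold318 run. For GENE_0016277 the log2 fold change was 13.98 by the edgeR gene map mode and 20.41 by the edgeR Trinity mode in the authors' deposited table. For GENE_0116783 the same modes gave 13.44 and 13.34 in the authors' deposited table, and for GENE_0116780 10.84 and 11.23.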

How the data were processed

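Per the submitters' processing notes, the authors processed the reads with TopHat, Cufflinks, edgeR and Cuffdiff; versions and genome build are not given in the sources used here. Per the labels' protocols the libraries kept the strand. Per the file headers, the authors deposited Cuffdiff tables with 1 pooled FPKM per sex, a log2 fold change, a test score (not used here), p-values and adjusted values, and edgeR tables with log2 fold change, average log2 CPM, p-value and adjusted value. The authors' full edgeR loci table, whose name refers to the Trinity mode, was read as the gene map comparison because its fold changes equal the gene map values of the shared set. Loci were matched by ID: 33763 of 37449 of the authors' edgeR loci are in the Cuffdiff table. The implied level splits the average CPM between the sexes by the fold change; at low counts it may hold a prior count. Run finding and implied levels were tested on simulated data. The members, the lists and the tests were chosen with earlier results of these data known. Named were the first, last and strongest loci of each run, the nearest tested loci beyond it, up to 2 other loci inside it with the highest female FPKM, and the most female-biased locus of each scaffold; GENE_0127437, GENE_0181753, the other run loci and the loci of Scaffold435, of the looser groups and of shared coordinates were added after their values were seen. No test was run, since no value per library was analysed. Alternatives were other call rules, thresholds, gaps, pseudocounts and 1 locus per overlapping stretch. Python 3.11.15, numpy 2.4.6, pandas 2.3.3 and matplotlib 3.10.9 were used.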

Additional observations from a re-analysis of the deposited data

Results flagged for a closer look

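Calls outside the edgeR comparison stand in the Cuffdiff table. Of the 103 loci of the 6 scaffolds that the edgeR table lacks and that Cuffdiff tested, the authors' deposited table has 9 (8.74%) as male-biased, against 7.06% of all loci it tested, and 3 (2.91%) as female-biased, against 10.4%. The male-biased share is near that of all loci and is no result about these scaffolds. The male-biased ones include GENE_0002535 inside the Scaffold318 run, with 1.48 FPKM in males and 0 in females, and GENE_0096803 just after the Scaffold230 run, with 0.705 FPKM in males and 0 in females. GENE_0150516, beyond the Scaffold420 run, had 4.19 FPKM in males and 0 in females. These loci were named after their values were seen.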

How the results depend on the processing

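No paired analysis was possible because the tables hold 1 pooled value per sex, and for the same reason no library could be left out. The 70 male-biased and 23 female-biased loci became 20 and 8 in the set of all 3 methods, and the male-biased count was 45 by Cuffdiff. With 1 locus per overlapping stretch it was 53, within 1.5 times the count given. Loci in runs, 40, were 25 with a log2 ratio of the Cuffdiff FPKM values of at least 5 in place of the edgeR fold change. Those 25 lie in runs on Scaffold217, Scaffold230 and Scaffold318 only. That ratio used loci with status OK and a pseudocount of 0.1. Under the other alternatives the loci in runs numbered 30 to 57. The median log2 FPKM ratio of the run loci, 7.68, moved to 4.68 with a pseudocount of 1, to 10.26 with 0.01, to 8.47 with an FPKM of at least 1 in a sex and to 8.27 with status OK; a pseudocount cannot change a sign. The share of the 6 scaffolds in the summed FPKM was 0.0840% in males and 0.0196% in females, whereas by implied level it was 5.72% in males and 0.729% in females. The FPKM sum covers all listed loci and counts the HIDATA run loci at 0 FPKM in males, whereas the implied level covers edgeR loci only. The FPKM sum also takes in single loci of very high FPKM, up to 10910 in females on the 6 scaffolds. The cause of the gap was not tested. With no depth per library, the smallest difference that could be seen is unknown.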
